A study of Mus musculus with 14 samples.

Results

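The naive pluripotency transcription factors are 10 genes, Nanog, Klf2, Klf4, Klf5, Esrrb, Tfcp2l1, Nr0b1, Zfp42, Tbx3 and Prdm14, taken by symbol from the 16181 genes that the deposited CPM table lists (CPM, a gene's reads scaled to a fixed library total). All 10 were found. RNA was measured in a pair of mouse embryonic stem cell (ESC) lines that carry an Osr1-GFP reporter. One had a stable hairpin against DIS3L2, a 3′-to-5′ exoribonuclease (shDIS3L2), and one a stable hairpin against LacZ (shLacZ, the isogenic control). The paper names TC1 as its mouse ESC line. Undifferentiated cells in medium with LIF and 2i were collected at d0, and embryoid bodies (EBs) every 2 days from d2 to d12 after LIF and 2i were withdrawn. EBs were formed in hanging drops in medium with serum for 2 days and then kept in suspension. Each line and day has 1 library, 14 in all, so differences on a single day carry no test of replicates, and each line is 1 culture series.

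Naive pluripotency is the state of the preimplantation epiblast, and mouse ESCs hold it in culture when LIF activates STAT3 while 2i, a pair of inhibitors, blocks MEK and GSK3. A small circuit of transcription factors carries these inputs. LIF and STAT3 act through Klf4 and Tfcp2l1, relief from the repressor TCF7L1 through GSK3 inhibition raises Esrrb, Klf2 and Nanog, and these factors bind each other's regulatory DNA. When the inputs are withdrawn the circuit is dismantled, cells pass through a formative stage marked by Otx2 and Fgf5, and only then respond to signals that specify germ layers. Several of the factors are used again later, Klf4 and Klf5 in epithelia, Tbx3 in endoderm, mesoderm and heart, and Prdm14 and Nanog in primordial germ cells.

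In GRCm38 coordinates, Nanog (ENSMUSG00000012396), a homeodomain factor, lies at chr6:122707489-122714633, and Zfp42 (ENSMUSG00000051176), the zinc finger protein REX1 used as a marker of naive cells, at chr8:43295063-43306980. The Krüppel-like zinc finger genes are Klf2 (ENSMUSG00000055148, chr8:72319033-72321656), Klf4 (ENSMUSG00000003032, chr4:55527143-55532466) and Klf5 (ENSMUSG00000005148, chr14:99298691-99313405, the part the authors counted). Esrrb (ENSMUSG00000021255, chr12:86361117-86521628) and Nr0b1 (ENSMUSG00000025056, chrX:86191764-86195947) encode orphan nuclear receptors. Tfcp2l1 (ENSMUSG00000026380, chr1:118627945-118685168) encodes a CP2 family factor, Tbx3 (ENSMUSG00000018604, chr5:119670669-119684724) a T-box factor, and Prdm14 (ENSMUSG00000042414, chr1:13113457-13127163) a PR-domain factor that represses FGF signalling and DNA methyltransferase genes. Values are for whole genes, exons merged. Tbx3 shares 115 exonic bases with the antisense gene Tbx3os1, which held at most 142 reads in any library, and the processed pseudogene Nanog-ps1 held at most 83.

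The promoters of 7 of the 10 genes, 9 entries, are in the RefSeq promoter table for GRCm38. They were searched on both strands for the letters of sites bound by the circuit and its inputs, in the 250 bases before the start. The windows of Nanog and Zfp42 are printed because only they held a match and because both genes set apart the lines at d6. Capitals mark the matches. In Nanog (chr6:122707239-122707488, plus strand) they are the SOX-OCT composite (CATTGT, any base, then ATGCAAA), read here on the other strand 75 to 62 bases before the start, and the OTX2 core GGATTA. In Zfp42 (chr8:43307010-43307259, minus strand) they are the octamer ATGCAAAT and the KLF site GGGTGTGG, both on the other strand.
Nanog: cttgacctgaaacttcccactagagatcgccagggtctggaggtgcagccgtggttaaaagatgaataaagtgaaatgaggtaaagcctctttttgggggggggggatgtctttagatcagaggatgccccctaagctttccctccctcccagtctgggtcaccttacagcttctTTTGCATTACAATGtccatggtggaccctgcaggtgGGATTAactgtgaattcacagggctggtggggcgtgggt
Zfp42: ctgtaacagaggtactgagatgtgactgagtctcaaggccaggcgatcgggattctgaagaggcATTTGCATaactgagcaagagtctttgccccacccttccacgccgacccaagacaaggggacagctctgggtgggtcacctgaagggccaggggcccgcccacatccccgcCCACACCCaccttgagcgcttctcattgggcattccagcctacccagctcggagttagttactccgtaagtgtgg
The composite occurred in 2 of 32851 promoters (0.00609%), and both are overlapping entries of Nanog that hold this same site. The octamer was in 1.6% of all promoters, the KLF site in 3.20% and the OTX2 core in 6.25%. The composite and the octamer share the letters ATGCAAA. ESRRB (CAAGGTCA), STAT3 (TTCCNGGAA) and TCF (ATCAAAG) letters were in none of the 9 windows, and in 1.33%, 0.913% and 3.21% of all promoters.

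Libraries held 7178712 to 39888099 reads on genes. The deposited CPM are relative to the listed protein-coding genes, which took 75.2% to 90.5% of those reads, and 3 counts were worth 0.0960 to 0.474 CPM. Dis3l2 was checked first. At d0 its level was 36.7 CPM in the control line and 5.23 CPM in the knockdown line, a ratio of 0.142 (95% interval 0.115 to 0.174). The ratio was 0.285 at d2 and 0.322 at d4, and by d6 it was 0.550 (0.448 to 0.674). At d8 and d10 it was not lower in the libraries labelled shDIS3L2, with ratios of 0.969 (0.835 to 1.12) and 0.95 (0.788 to 1.15), and at d12 the ratio was 0.754 (0.608 to 0.933). Directions drawn from d8 and d10 therefore rest on the labels. All intervals here are exact and cover counting error only.

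At d0 all 10 factors were detected in both lines, next to Pou5f1, the core pluripotency factor OCT4, at 1529 CPM in the control line and 955 CPM in the knockdown line. Per kilobase of exon, Zfp42 (272 CPM per kb), Klf2 (206) and Nanog (200.1) led in shLacZ, followed by Esrrb (80.9), Tfcp2l1 (68.1), Klf4 (32.0), Nr0b1 (26.8), Tbx3 (26.5), Prdm14 (13.9) and Klf5 (5.27). In shDIS3L2 the order was Nanog (194 CPM per kb), Klf2 (148), Zfp42 (142), Tfcp2l1 (75.4), Esrrb (56.6), Tbx3 (44.7), Nr0b1 (19.6), Klf4 (13.6), Klf5 (12.0) and Prdm14 (7.27). The same 5 genes filled the first 5 places in both lines, while the order within them changed. Klf2 and Nanog in shLacZ, Klf2 and Zfp42 in shDIS3L2, and Nr0b1 and Tbx3 in shLacZ were close neighbours whose order has no replicate behind it.

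**Figure D1:**
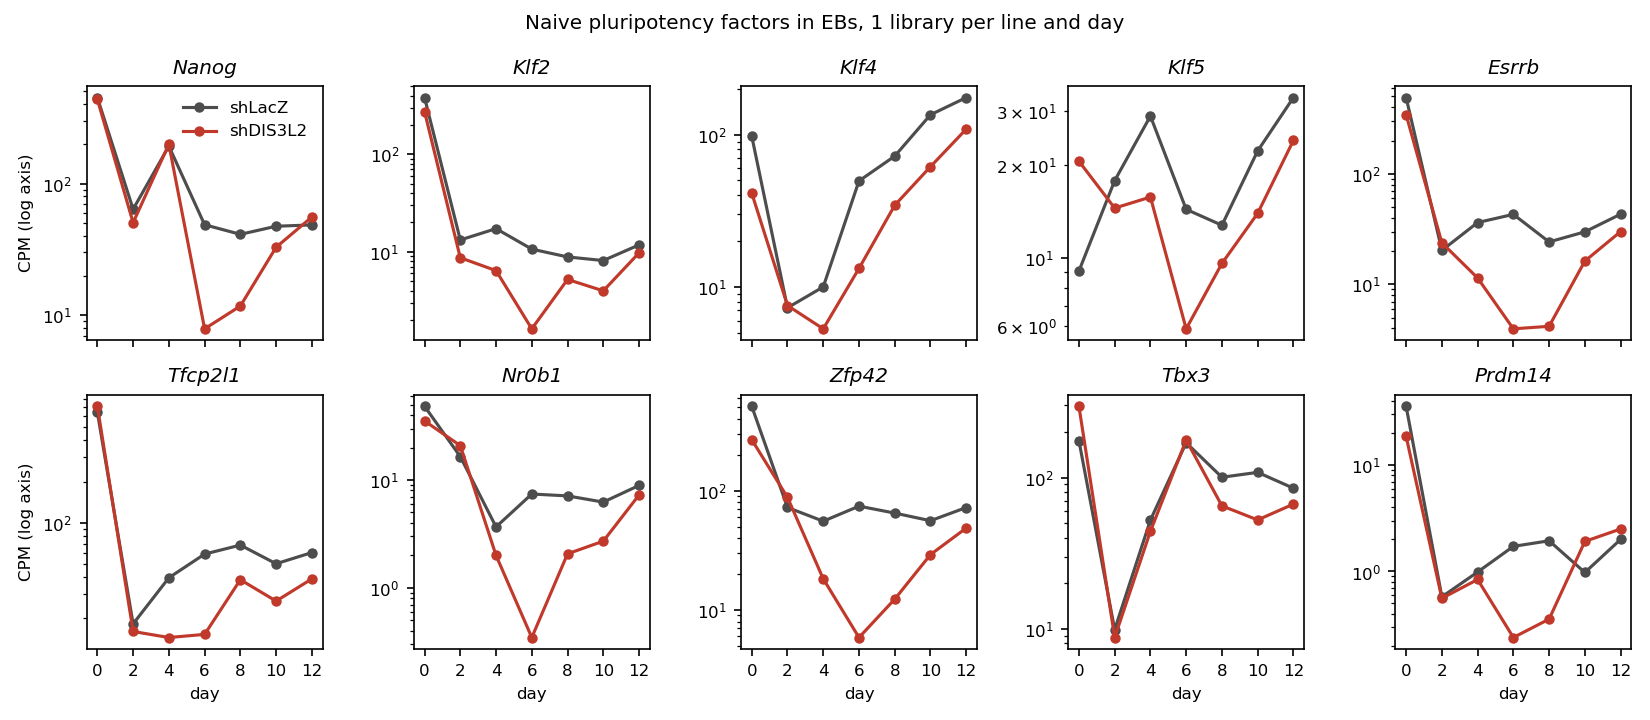
Level of each naive factor by day, in CPM on a log axis whose range differs between panels, with 1 point per library (grey shLacZ, red shDIS3L2). In shDIS3L2 Nanog, Klf2, Klf5, Esrrb, Nr0b1, Zfp42 and Prdm14 have their lowest point at d6, while the grey curves of Nanog and Zfp42 stay between 41.2 and 74.3 CPM from d6 on.

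The course of each factor over the 7 days is given next, in CPM. Nanog in shLacZ had 449 CPM at d0, and in the EBs, sampled every 2 days from d2, it had 63.8, 192, 48.7, 41.2, 47.4 and 48.5. In shDIS3L2 it had 435 CPM at d0, then 50.5, 198, 7.90, 11.8, 32.8 and 55.7. Both lines showed a second peak at d4, and the lines parted at d6 and d8 and met again at d12. Zfp42 in shLacZ had 511 CPM at d0, then 72.4, 55.5, 74.3, 64.9, 56.0 and 72.3. In shDIS3L2 it had 268 CPM at d0, then 88, 18.3, 5.88, 12.3, 29.1 and 48.7. Zfp42 stayed between 55.5 and 74.3 CPM from d2 on in the control line and passed through a trough at d6 in the other.

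Esrrb in shLacZ had 489 CPM at d0, then 20.3, 36.2, 43.0, 24.2, 29.9 and 43.1 from d2 to d12. In shDIS3L2 it had 342 CPM at d0, then 23.8, 11.4, 3.96, 4.18, 16.2 and 30.0. The trough of Esrrb covered d6 and d8 alike. Tfcp2l1, the member with most reads at d0, had 643 CPM in shLacZ, then 18.2, 39.6, 58.9, 68.6, 50.1 and 60.5. In shDIS3L2 it had 711 CPM, then 16.0, 14.5, 15.2, 38.3, 26.7 and 38.8. The control line regained some Tfcp2l1 from d4, the knockdown line from d8. Nr0b1, whose product binds and restrains OCT4, had 48.4 CPM in shLacZ at d0, then 16.5, 3.67, 7.42, 7.13, 6.24 and 8.91. In shDIS3L2 it had 35.4 CPM, then 20.9, 2.00, 0.346, 2.07, 2.71 and 7.27. The value at d6 rests on 3 reads.

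Of the Krüppel-like genes, Klf2 had 381 CPM in shLacZ at d0, then 13.2, 17.3, 10.7, 8.86, 8.13 and 11.8, and 274 CPM in shDIS3L2, then 8.69, 6.41, 1.62, 5.2, 3.98 and 9.75. From d2 on Klf2 stood at 0.593% to 4.53% of its d0 level over both lines, with its lowest value at d10 in shLacZ and at d6 in shDIS3L2. Klf4 had 97.7 CPM in shLacZ at d0, then 7.29, 10.0, 49.6, 72.2, 135 and 175, and 41.3 CPM in shDIS3L2, then 7.54, 5.31, 13.2, 34.3, 61.5 and 109. It was the only member above its d0 level in both lines at d10, at 138% and 149% of d0, and it reached 179% in shLacZ and 263% in shDIS3L2 at d12. The median gene compared had a log2 ratio of d12 over d0 of 0.44 in shLacZ and 0.88 in shDIS3L2. Percents of d0 and their gap between the lines therefore depend on the scaling. Klf5 had 9.06 CPM in shLacZ at d0, then 17.8, 29.0, 14.4, 12.8, 22.3 and 33.3, and 20.6 CPM in shDIS3L2, then 14.5, 15.8, 5.88, 9.60, 14 and 24.1. In the control line Klf5 had its lowest value in the undifferentiated cells, unlike the other members.

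Tbx3 had 175 CPM in shLacZ at d0, then 9.87, 52.4, 170.0, 100.5, 108 and 85.0, and 296 CPM in shDIS3L2, then 8.75, 44.2, 177, 65.0, 52.5 and 66.8. Its EB peak at d6 stood at 96.9% of the d0 level in shLacZ and 59.8% in shDIS3L2, on the day when most other members were at their lowest in shDIS3L2. Prdm14, the least abundant member in EBs, had 35.7 CPM in shLacZ at d0 and 0.578 to 2.00 CPM afterwards. In shDIS3L2 it had 18.6 CPM at d0 and 0.239 to 2.51 CPM afterwards, with the lowest value, at d6, from 2 reads. The lines differed in Prdm14 by less than counting error on 4 of the 6 EB days.

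Withdrawal of LIF and 2i was followed within 2 days by a loss of most of the circuit in both lines. From d0 to d2, 9 of 10 members were at least 2-fold lower in shLacZ, where 20.7% of all listed genes compared were, and 8 of 10 in shDIS3L2, where 19.4% were. The median member was left with 6.54% of its d0 level in shLacZ and 9.27% in shDIS3L2. Over the same step the median gene compared had a log2 ratio of 0.36 in shLacZ and 0.59 in shDIS3L2. In shLacZ least was left of Prdm14 (1.62%), Tfcp2l1 (2.83%) and Klf2 (3.47%), and in shDIS3L2 of Tfcp2l1 (2.25%), Tbx3 (2.95%), Prdm14 (3.0%) and Klf2 (3.18%). Nr0b1 was left with 34.1% and 58.9%, and Klf5 stood at 197% in shLacZ and 70.4% in shDIS3L2.

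The step was tested across both lines with edgeR's quasi-likelihood test, in a model of line and day in which the departure of the lines from parallel courses is the error. For d2 against d0, 8 members fell, beside 31.0% of the 20050 genes tested that fell and 34.5% that rose. The log2 changes were −5.97 ± 0.77 (SE) for Prdm14, −5.83 ± 0.52 for Tfcp2l1, −5.39 ± 0.47 for Klf2, −5.18 ± 0.44 for Tbx3 and −4.57 ± 0.76 for Esrrb. They were −3.48 ± 0.37 for Klf4, −3.45 ± 0.63 for Nanog and −2.47 ± 0.71 for Zfp42, whose adjusted p of 0.0107 was the weakest of the 8. Nr0b1 (−1.50 ± 0.68, adjusted p = 0.0747) and Klf5 (−0.45 ± 0.49, adjusted p = 0.437) did not pass. DESeq2 and edgeR with no filter on low counts both called Nr0b1 as well, but not Klf5. The call of Zfp42 was lost without the d2 library of shLacZ (adjusted p = 0.0741) or the d0 library of shDIS3L2 (0.0638). Klf5 took the opposite sign, +0.22, when libraries were scaled by their totals, and +0.82 (adjusted p = 0.0455) without the d0 library of shDIS3L2.

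At the same step, with the shares over all genes as above, 5 of 7 genes of the LIF and STAT3 pathway fell, among them its feedback inhibitor Socs3 (−4.5 ± 0.37 on the log2 scale) and the kinase genes Pim1 (−2.75 ± 0.21) and Pim3 (−2.37 ± 0.20), while Jak1 rose. Of 12 other naive-associated genes 7 fell, with Tcl1 at −5.98 ± 0.72 and Tdh, threonine dehydrogenase, at −4.10 ± 0.67. Of 8 formative genes 7 rose, with Fgf5 at 9.57 ± 1.48, Pou3f1 at 7.88 ± 1.09 and the DNA methyltransferase gene Dnmt3a at 5.67 ± 0.42. Of the 6 core pluripotency genes 1 fell (Sall4) and 2 rose (Lin28a and Zfp281), and Pou5f1 still had 1098 CPM at d2 in the control line and 1108 CPM in the knockdown line.

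**Figure D2:**
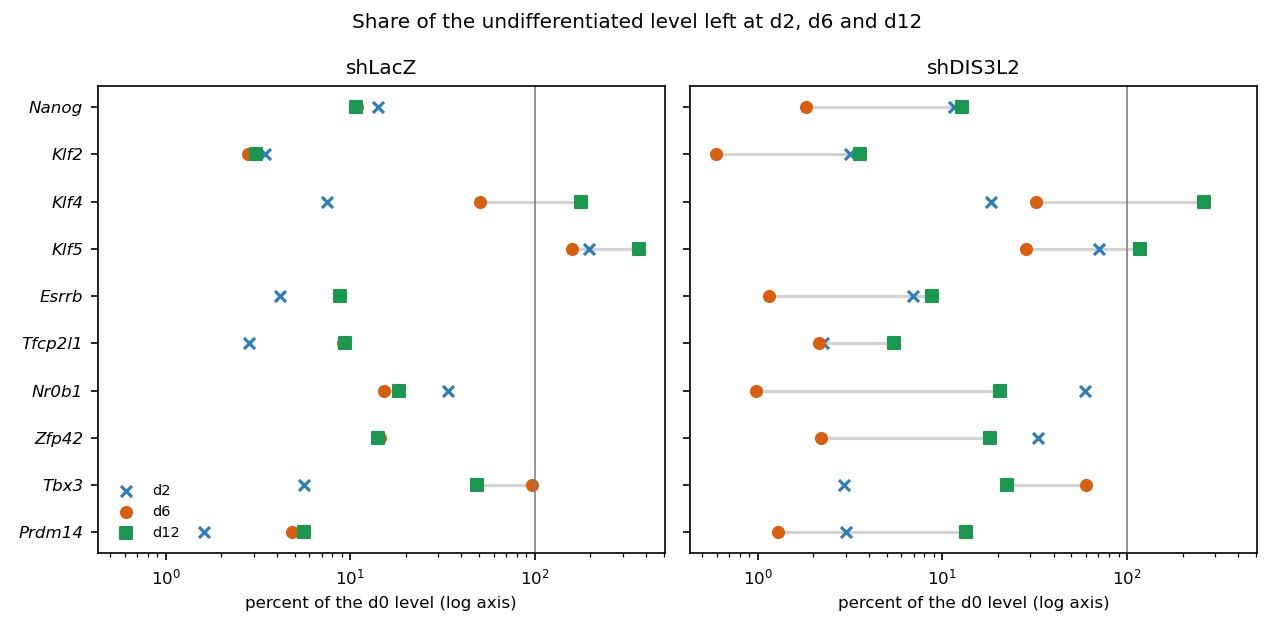
Level of each naive factor at d2 (crosses), d6 (circles) and d12 (squares) as percent of its own d0 level, log axis, 1 library per point, shLacZ left and shDIS3L2 right, with a grey bar from d6 to d12 and a line at the d0 level. At d6 the median is 12.7% in shLacZ and 1.98% in shDIS3L2, and at d12 it is 12.5% and 15.8%. Percents are not adjusted for the median gene compared, whose log2 ratio of d12 over d0 was 0.44 in shLacZ and 0.88 in shDIS3L2.

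The next steps differed among the members. From d2 to d4 Tbx3 rose (log2 change 2.38 ± 0.40, adjusted p = 0.00371, beside 9.25% of genes that rose) and Nr0b1 fell (−2.91 ± 0.77, adjusted p = 0.0268, beside 8.23% that fell) by the edgeR test. Nanog was 3.01-fold (2.79 to 3.25) higher at d4 than at d2 in shLacZ and 3.93-fold (3.65 to 4.23) higher in shDIS3L2, with an adjusted p of 0.0579 for the shared step. From d4 to d6 Klf4 (1.96 ± 0.37, adjusted p = 0.00851) and Tbx3 (1.92 ± 0.38, adjusted p = 0.0108) rose, beside 7.54% of genes. Nanog fell over that step (−2.95 ± 0.63, adjusted p = 0.0148, beside 6.24% of genes). These calls rest on few libraries. Nr0b1 at d4 was lost without the d4 library of shLacZ or the d2 or d4 library of shDIS3L2 (adjusted p of 0.129 to 0.210). Without the d4 library of shDIS3L2 all 3 calls from d4 to d6 were lost (0.0856 to 0.109), without its d6 library Nanog and Tbx3 were, without the d6 library of shLacZ Klf4 was, and without its d4 library Tbx3 was.

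Within the lines the step from d4 to d6 was unlike. In shLacZ, Nanog and Klf5 were at least 2-fold lower at d6 than at d4 (10.9% of genes were) and Klf4, Nr0b1 and Tbx3 at least 2-fold higher (9.24% of genes were). In shDIS3L2, 6 of the 9 members compared were at least 2-fold lower, beside 14% of genes, namely Nanog, Klf2, Klf5, Esrrb, Nr0b1 and Zfp42. Zfp42 had a ratio of 1.34 (1.18 to 1.52) in shLacZ and of 0.321 (0.237 to 0.428) in shDIS3L2, and Esrrb of 1.19 (1.01 to 1.39) and 0.345 (0.236 to 0.491). Nanog had ratios of 0.253 (0.229 to 0.280) and 0.0397 (0.0311 to 0.05). Klf4 and Tbx3 were at least 2-fold higher in both lines (in shDIS3L2 13.8% of genes were). At d6, 4 members in shLacZ and 7 in shDIS3L2 were under 10% of their d0 level. The share of all genes under that limit was not computed, so these counts describe the members alone.

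Between the lines the factors were close at d2 and far apart at d6. In undifferentiated cells 1 member was at least 2-fold lower in shDIS3L2, Klf4 at a ratio of 0.423 (0.391 to 0.457), beside 8.89% of genes, and 1 was at least 2-fold higher, Klf5 at 2.28 (1.95 to 2.66), beside 2.01%. The median gene had a log2 ratio of −0.26 at d0, so that ratios near 1 on that day depend on the scaling. Nanog had a ratio of 0.970 (0.944 to 0.996), Tfcp2l1 of 1.11 (1.08 to 1.13), Tbx3 of 1.69 (1.63 to 1.75) and Zfp42 of 0.525 (0.508 to 0.541). At d2 none of the 9 members compared differed by 2-fold, beside 1.33% of genes lower and 0.664% higher. At d4, 4 of 9 were at least 2-fold lower in shDIS3L2, beside 5.46% of genes: Esrrb at 0.315 (0.260 to 0.382), Zfp42 at 0.329 (0.282 to 0.383), Tfcp2l1 at 0.365 (0.306 to 0.436) and Klf2 at 0.371 (0.283 to 0.486). Nanog at d4 had a ratio of 1.03 (0.967 to 1.10).

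At d6, 9 of 10 factors were at least 2-fold lower in shDIS3L2 than in shLacZ, beside 8.71% of genes, with a median log2 ratio of −2.67 against −0.01 over all genes. Zfp42 was 12.7-fold lower (9.65 to 17.0), Esrrb 10.9-fold (7.81 to 15.7), Klf2 6.66-fold (3.89 to 12.3) and Nanog 6.18-fold (4.84 to 7.98). Tfcp2l1 was 3.87-fold lower (3.23 to 4.67), Klf4 3.76-fold (3.09 to 4.6) and Klf5 2.46-fold (1.80 to 3.39). Nr0b1 had 87 reads in shLacZ and 3 in shDIS3L2, a ratio of 0.0431 (0.00873 to 0.130), and Prdm14 20 and 2 reads, a ratio of 0.125 (0.0142 to 0.515). Tbx3 was the exception, with 1.04 (0.977 to 1.11). A lower level in bulk EBs can come from fewer cells with the transcript or from less transcript per cell, and these cannot be told apart.

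**Figure D3:**
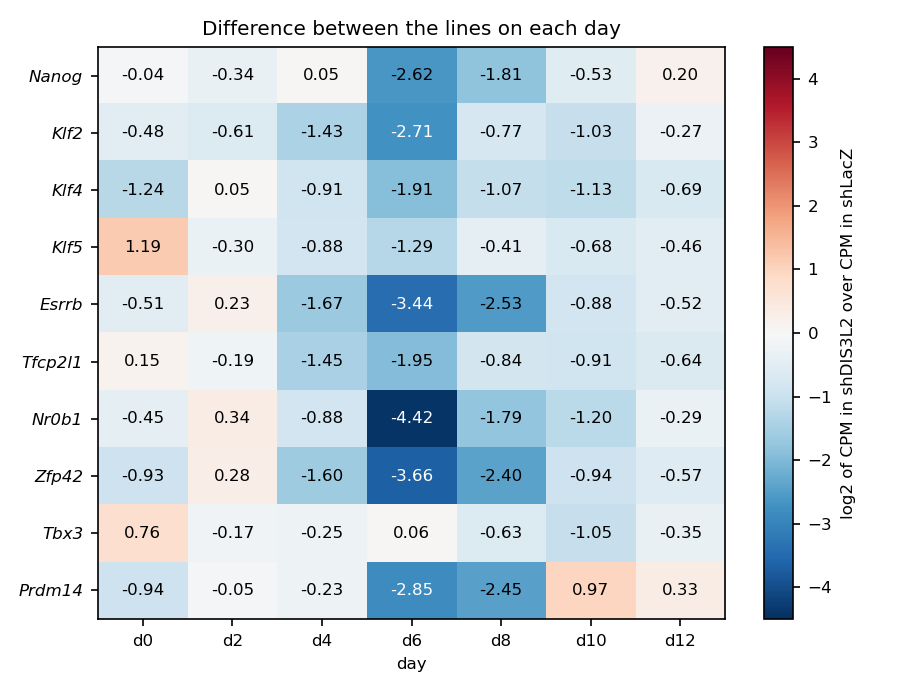
Log2 of the CPM in shDIS3L2 over the CPM in shLacZ for each naive factor and day, 1 library per line and day (blue lower, red higher in shDIS3L2). The d6 column is lowest for every factor but Tbx3, and no cell at d12 reaches a 2-fold difference.

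After d6 the lines converged in the members other than Tbx3. For Tbx3, which was alike in the lines at d6, they moved apart, with its lowest ratio at d10. At d8, 6 of 10 members were at least 2-fold lower in the library labelled shDIS3L2 (8.79% of genes were), with Esrrb at a ratio of 0.172 (0.132 to 0.222), Prdm14 at 0.178 (0.0603 to 0.435) and Zfp42 at 0.190 (0.163 to 0.220). Nanog stood at 0.286 (0.243 to 0.335), Nr0b1 at 0.289 (0.192 to 0.425) and Klf4 at 0.476 (0.430 to 0.526). At d10, 4 of 10 were at least 2-fold lower (8.81% of genes were), Nr0b1 at 0.434, Klf4 at 0.456, Tbx3 at 0.484 and Klf2 at 0.489. Prdm14 was higher there, at 0.979 CPM in shLacZ and 1.92 in shDIS3L2 (7 and 36 reads). Its read ratio was 2.01 with an interval that spanned 1, and its CPM differed by less than 2-fold. At d12 none differed by 2-fold, beside 4.45% of genes lower and 13.3% higher. Nanog had a ratio of 1.15 (1.01 to 1.30) there and the other members had 0.621 to 1.26.

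The approach came from shDIS3L2. From d6 to d12, 9 members were at least 2-fold higher in that line, beside 21.7% of genes, with a median log2 ratio of 2.87 against 0.16 over all genes. In shLacZ 2 were, Klf4 and Klf5, beside 11.7% of genes, with a median log2 ratio of 0.09 against 0.04. Zfp42 was 8.31-fold (6.28 to 11.2) higher at d12 than at d6 in shDIS3L2 and had a ratio of 0.974 (0.879 to 1.08) in shLacZ. Esrrb was 7.62-fold (5.40 to 11) higher against a ratio of 1.0 (0.878 to 1.15), and Nanog 7.07-fold (5.54 to 9.14) higher against 0.997 (0.879 to 1.13). Tbx3 was the 1 member at least 2-fold lower at d12 in shDIS3L2, beside 4.61% of genes, with a ratio of 0.377 (0.343 to 0.413), and in shLacZ its ratio was 0.500 (0.460 to 0.544). In the test over both lines only Klf4 rose from d6 to d12 (log2 change 2.32 ± 0.35, adjusted p = 0.0067, beside 5.02% of genes). Without the d6 library of shDIS3L2 that call was lost (adjusted p = 0.0731). Klf5 (1.52 ± 0.50, adjusted p = 0.0896) and Tbx3 (−1.22 ± 0.37, adjusted p = 0.0712) did not pass, though DESeq2 and edgeR with no filter on low counts called both.

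The difference between the lines was also tested by period with edgeR, in a model that pairs the libraries of each day and takes days of one series in place of replicates. Over d0, d2 and d4 no member passed, where 0.015% of genes were called lower and 0.020% higher. Klf2 and Klf4 had an unadjusted p under 0.05 there, as did 2171 genes in all. DESeq2 called none either. The same edgeR test with no filter on low counts called 4 lower, Klf2, Klf4, Esrrb and Zfp42, beside 305 of 33800 genes. Over d6 to d12, 7 members were lower in shDIS3L2, beside 17.0% of genes lower and 13.2% higher. The log2 differences were −1.83 ± 0.44 (SE, adjusted p = 0.00973) for Zfp42, −1.75 ± 0.43 (0.0114) for Esrrb, −1.59 ± 0.42 (0.0157) for Nr0b1 and −1.24 ± 0.19 (0.00104) for Klf4. They were −1.17 ± 0.35 (0.0262) for Nanog, −1.13 ± 0.26 (0.00792) for Tfcp2l1 and −1.10 ± 0.30 (0.0179) for Klf2. Klf5 (−0.76 ± 0.30, adjusted p = 0.0843), Tbx3 (−0.55 ± 0.20, 0.0635) and Prdm14 (−0.75 ± 0.53, 0.327) did not pass, nor did Dis3l2 itself (−0.41 ± 0.19, 0.132). With no filter on low counts edgeR called Klf5 and Tbx3 as well, but not Prdm14.

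Whether the later difference exceeds the earlier one depended on the filter. All 10 members had a more negative difference over d6 to d12 than over d0 to d4, by a median of 0.81 on the log2 scale, but none passed the test of that change on filtered genes, where 5.24% of genes passed with a lower value. By unadjusted p under 0.05 there were 3 by edgeR and 2 by DESeq2, shares near those of all genes (5500 and 4901 of 20050). With no filter on low counts edgeR called 6 after adjustment, Nanog, Esrrb, Tfcp2l1, Nr0b1, Zfp42 and Tbx3. Of all 33800 genes in that fit, 1788 were called higher and 1491 lower. Without either d8 library 3 members were called lower over d6 to d12, Klf2, Klf4 and Tfcp2l1. Beside them, 1958 of 21298 genes were called lower without that of shLacZ and 1959 of 20827 without that of shDIS3L2. Without d8 and d10 in both lines no member was called, but calls over all genes also dropped, to 250 lower and 262 higher of 19249. The log2 differences there were −1.98 ± 0.68 for Zfp42 (adjusted p = 0.163) and −1.30 ± 0.33 for Klf4 (adjusted p = 0.0776).

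**Figure D4:**
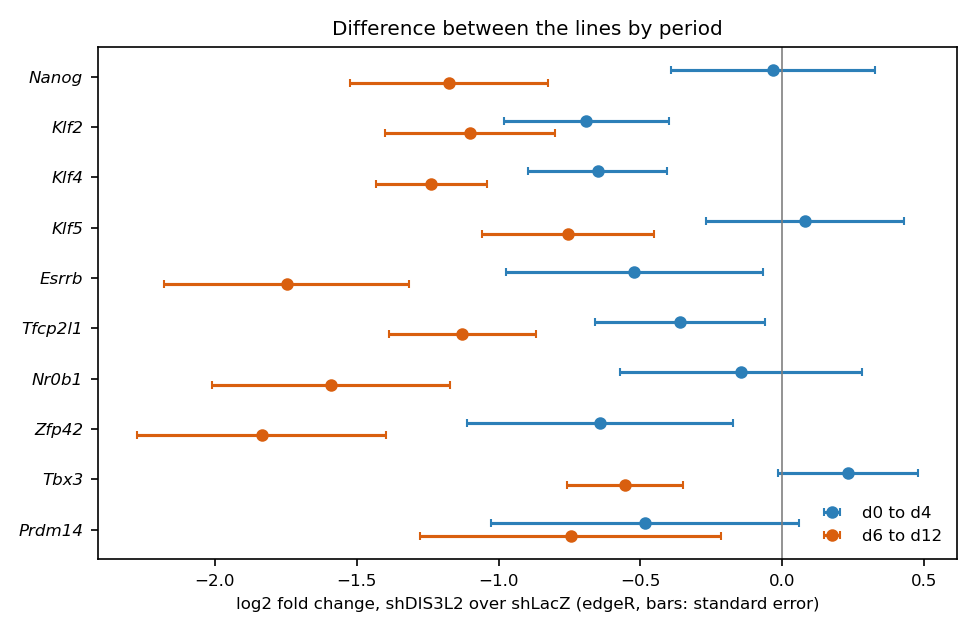
Log2 difference of shDIS3L2 from shLacZ for each naive factor, from edgeR, averaged over d0 to d4 (blue, 3 days) and over d6 to d12 (orange, 4 days), with bars of 1 standard error. Every orange point lies below 0, from −1.83 for Zfp42 to −0.55 for Tbx3.

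Other parts of the pluripotency network were read from lists chosen by function, and their counts at d6 stand beside 8.71% of all genes lower and 7.1% higher. At d6, 10 of 12 other naive-associated genes were at least 2-fold lower in shDIS3L2 (median log2 ratio −2.45), led by Dppa2 (12.9 CPM in shLacZ and 1.09 in shDIS3L2), Tcl1 (8.18 and 0.771), Dppa5a (90.2 and 11.9) and Tdh (181 and 24.4). Pecam1, also an endothelial surface gene, was 2.15-fold (1.87 to 2.47) higher. Of 6 core genes, Utf1 (13.5 and 0.771 CPM), Pou5f1 (133 and 16.1) and Sox2 (20.6 and 10.2) were at least 2-fold lower. Of 8 formative genes 6 were lower, with Fgf5 at 8.35 and 1.09 CPM and Otx2 at 10.4 and 2.15. None of 7 LIF and STAT3 pathway genes differed by 2-fold at d6 (median 0.11), 1 of 6 ERK branch genes did (Etv4, lower), and of 7 WNT branch genes Sp5 was lower and Lef1 higher.

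Over d6 to d12, where 17.0% of all genes were called lower and 13.2% higher, the edgeR test called 5 of 6 core genes lower, with Utf1 at a log2 difference of −2.70 ± 0.42 and Pou5f1 at −2.39 ± 0.33. It called 6 of 8 formative genes lower, with Fgf5 at −3.36 ± 0.37 and Otx2 at −3.07 ± 0.31, and 5 of 6 ERK branch genes, with Etv5 at −1.38 ± 0.15 and Spry4 at −1.24 ± 0.19. Of the other naive-associated genes 5 were lower, led by Fgf4 (−2.07 ± 0.31), and Tet2 was higher (1.05 ± 0.19). Of the 7 LIF and STAT3 pathway genes only Pim3 (−0.48 ± 0.12) and of the 7 WNT branch genes only Sp5 (−1.95 ± 0.37) passed, shares near that of all genes called lower. The courses of the lists differed after d6. The medians of the naive factors and of the other naive-associated genes were lowest at d6, whereas those of the core list (−2.02) and the formative list (−3.71) were lowest at d8 and the formative list was still at −1.36 at d12.

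**Figure D5:**
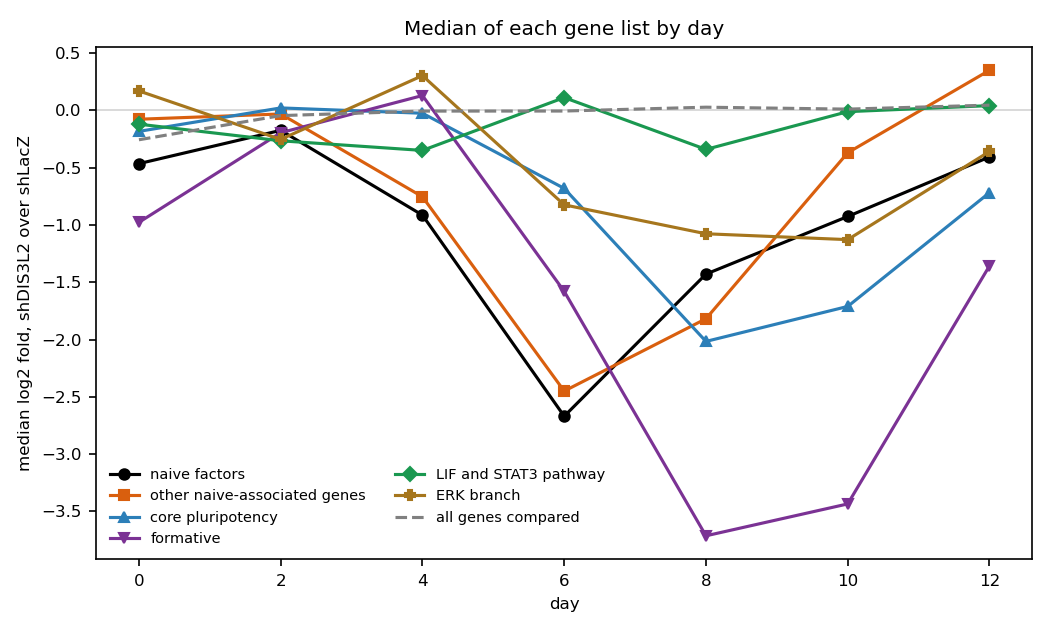
Median log2 of CPM in shDIS3L2 over shLacZ by day for 6 gene lists and for all genes compared (dashed), 1 library per line and day. The naive factors (black) go from −0.17 at d2 to −2.67 at d6 and −0.41 at d12, while the LIF and STAT3 list (green) stays between −0.35 and 0.11.

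Markers of other cell types also moved with the lines at these days, and their counts are again beside 17.0% of all genes called lower and 13.2% higher. All 6 visceral endoderm markers (Afp, Ttr, Apoa1, Hnf4a, Foxa2, Sox17) were lower in shDIS3L2 over d6 to d12 by the edgeR test, and their summed level was 417 to 2845 CPM in shLacZ and 140.1 to 887 CPM in shDIS3L2 over those days. Of 5 primitive streak markers 4 were lower, with sums of 28.7 to 110.3 CPM in shLacZ and 4.58 to 21.1 CPM in shDIS3L2. Of 6 simple epithelium markers Epcam, Cldn6 and Cdh1 were lower, with sums of 1943 to 2391 CPM in shLacZ and 999 to 1603 CPM in shDIS3L2. Of 7 primordial germ cell markers Ddx4 was lower (sums of 28.4 to 43.1 CPM in shLacZ and 15.3 to 49.2 in shDIS3L2), and of 5 trophoblast markers listed Plac1 was higher (65.9 to 278 and 70.3 to 492). Kdr and Emcn of 6 endothelial markers, Nes of 5 neural markers and Myh6, Tnnt2 and Myl7 of 4 cardiac markers tested were higher, while Sox1 was lower, and none of 4 2-cell-like markers tested passed. Counts of 1 in a list are near the shares of all genes. The germ cell and 2-cell-like lists changed direction between single days. At d6, 3 of 7 germ cell markers and 3 of 3 2-cell-like markers compared were at least 2-fold lower in shDIS3L2, beside 8.71% of genes. At d12, 3 of 7 and 3 of 3 were at least 2-fold higher, beside 13.3% of genes. The 2-cell-like sums were low, 5.27 CPM in shLacZ and 1.28 in shDIS3L2 at d6, and 7.35 and 21.8 at d12. The endothelial sums were 100.2 to 238 CPM in shLacZ and 206 to 449 in shDIS3L2, the neural sums 40.4 to 95.2 and 79.3 to 204, and the cardiac sums 7.50 to 20.5 and 9.71 to 106. From d6 on, of all markers listed, Tcstv3 at d6 and Sox1 at d8 were at 0 reads, both in shDIS3L2. The part that cell makeup had in the levels of the naive factors was not tested.

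Among themselves the members did not form 1 pattern. Over the 14 libraries the 45 pairs had Pearson r of log2(CPM + 1) from −0.17 to 0.953, median 0.562, and 14 pairs were over 0.8. Against the mean of the other members, Esrrb had the highest r (0.973), followed by Tfcp2l1 (0.911), Klf2 (0.908), Prdm14 (0.903) and Zfp42 (0.888). Tbx3 (0.361), Klf4 (0.404) and Klf5 (0.196) had the lowest. Over the 12 EB libraries alone, which leaves out the high d0 levels, the closest pairs were Esrrb with Zfp42 (0.914) and Nr0b1 with Zfp42 (0.910), and Tbx3 with Nr0b1 was the most opposed (−0.590). These are descriptions over libraries that share 2 cultures and neighbouring days.

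Outside the set, the genes whose course over the 14 libraries was most like the mean of the members were Fbxo15 (r = 0.982), an F-box gene used as an ESC marker, Dnase2a (0.966), Ocel1 (0.961), Zfp954 (0.958) and D230025D16Rik (0.952). Over the 12 EB libraries Fbxo15 again led (0.937), followed by Elf3 (0.934), Slc39a4 (0.931), Wwox (0.920) and Mcf2l (0.918). The closest partners of single members ran from r = 0.847 (Klf5 with Tapbp) to 0.988 (Klf2 with N4bp3). Klf2 was closest to N4bp3 (0.988) over 14 libraries, Prdm14 to Slc15a1 (0.984), Tfcp2l1 to Cox4i1 (0.981), Zfp42 to Triml1 (0.972), Klf4 to the tetraspanin gene Cd9 (0.968) and Tbx3 to Sccpdh (0.946).

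Of the 20 protein-coding neighbours, 1 on each side of each member, 18 reached 1 CPM in either line at d6. Of these, 2 were at least 2-fold lower in shDIS3L2 and 2 at least 2-fold higher, shares near the 8.71% and 7.1% of all genes. Triml2, 101 kb from Zfp42, had 56.1 CPM in the control line and 5.98 in the knockdown line, a log2 ratio of −3.23 beside −3.66 for Zfp42. Dppa3, a germ cell and naive-associated gene 77.2 kb from Nanog, had 2.49 and 0.452 CPM. Vash1 next to Esrrb (2.83 and 12.0 CPM) and Tbx5 next to Tbx3 (0.361 and 2.15 CPM) were higher in shDIS3L2. Slc2a3, 13.2 kb from Nanog, had a log2 ratio of −0.90 and did not reach 2-fold.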

How the data were processed

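PolyA+ RNA from 14 libraries, 1 per line and day, had been sequenced on a NextSeq 500. Per the study's methods and the submitters' processing notes, the authors aligned reads to GRCm38 with Subread 1.6.3, counted them per gene with featureCounts 1.6.3 and made CPM with edgeR in R 3.6. The deposited counts are whole reads for 50686 genes. The deposited CPM cover 16181 protein-coding genes, and for them equal the count plus 0.25 over the total of listed genes. Columns headed shm5 were matched to the shDIS3L2 libraries by elimination. The counted model of Klf5 ends before the GENCODE M21 end at 99315036.

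Levels are the deposited CPM. Folds on single days are ratios of reads scaled by the listed total with 95% Clopper-Pearson intervals. A difference counts at 2-fold or more in the deposited CPM, with at least 1 CPM in either library. Steps and periods were tested on counts with edgeR 4.0.16 in R 4.3.3 (TMM, filterByExpr by day, quasi-likelihood F test, Benjamini-Hochberg adjustment over 20050 genes, threshold 0.05). The models were line plus day, and day plus line with a separate line term for d6 to d12. Standard errors are the log2 change over the root of F. P-values measure how days of these cultures scatter, not how cultures would. Data were also simulated from the day means of these libraries. There edgeR recovered 100 of 100 changes of log2 size 2 and 93 of 100 of size 1 for the d6 to d12 line difference over 19778 genes. It recovered 38 of 100 of size 1 for the change between periods over 19777. The simulation gave all genes the same fixed spread, planted changes only in well-covered genes and let the lines differ in nothing else. These recoveries therefore do not give the power for the members in the real data. Alternatives were other scalings, DESeq2 1.42.0, no filter, a 3-fold criterion, other gene sets and leaving out each library.

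The members, gene lists and motifs were chosen with earlier results of these data known, so a list's count is not independent support for its direction. Named genes are the members, Dis3l2, up to 4 genes per list with the largest change, and genes with the highest r (at least 10 CPM in some library). List genes that passed and neighbours past 2-fold were named after their values were seen. Elf5 and Tcstv1 are not in the CPM table.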

Additional observations from a re-analysis of the deposited data

Results flagged for a closer look

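Klf5 moved in opposite directions between the lines on different days. In undifferentiated cells it was 2.28-fold (1.95 to 2.66) of the control level in shDIS3L2, where the levels were 20.6 CPM and, in shLacZ, 9.06 CPM. At d6 the ratio was 0.407 (0.295 to 0.555), with 14.4 CPM in shLacZ and 5.88 in shDIS3L2. Each ratio rests on 1 library per line, and the difference between the days was not tested.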

How the results depend on the processing

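The labels carry no replicate numbers, so there was no replicate number to use as a block, and the model of periods pairs the libraries by day. The count of members lower at d6 was 9 under each scaling, denominator and filter tried and 8 at 3-fold.

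Of the steps, Klf5 from d0 to d2 changed sign with library totals (+0.22) and without the d0 library of shDIS3L2. Its values with 1 library left out at a time ran from −1.25 to +0.82. DESeq2 and the fit with no filter each called 2 members higher from d2 to d4 and 2 from d6 to d12. Leaving out 1 library at a time gave 7 to 9 members lower from d0 to d2, 0 to 1 lower and 1 to 2 higher from d2 to d4, 0 to 2 lower and 0 to 2 higher from d4 to d6, and 0 to 3 higher from d6 to d12. Between the lines, no filter called 4 members lower over d0 to d4 and 6 in the change between periods. It called 9 lower over d6 to d12, beside 3331 of 33800 genes. Over d6 to d12, leaving out 1 library gave 3 to 9 members lower. Leaving out d8 and d10, chosen after seeing the data, gave 0, beside 250 of 19249 genes. All 10 log2 differences were below 0 in each of 20 alternatives, but these are not independent checks. Leaving out a library of d0, d2 or d4 hardly touches this contrast, and leaving out either library of a later day removes the same pair. With 1 library left out, 0 to 0 members were lower over d0 to d4 and 0 to 1 in the change between periods.

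On single days, DESeq2 size factors gave 0 members lower and 2 higher at d0. A 3-fold criterion gave 0 lower and 0 higher at d0, 2 lower at d4, 0 lower at d10, 1 lower from d4 to d6 and 1 higher from d6 to d12 in shLacZ. TMM and DESeq2 size factors each gave 1 lower from d4 to d6 in shLacZ.

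Over all genes, the line difference over d0 to d4 had 4 genes higher and 3 lower as reported, 104 and 76 with DESeq2 and 201 and 305 with no filter. From d0 to d2, 6924 rose and 6212 fell, against 9265 and 4107 with library totals, which moved the median from 0.12 to 0.71. From d6 to d12, 1007 rose and 432 fell, against 1541 and 1165 with DESeq2. The change between periods had 972 higher and 1051 lower, against 1139 and 415 with library totals and 1788 and 1491 with no filter. The causes were not tested. At 3 counts or fewer (Nr0b1 and Prdm14 at d6 in shDIS3L2) depth limits the ratios.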
